A study of Drosophila melanogaster with 33 samples.

Results

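RNA editing levels in nascent RNA were compared between male heads of 2 strains of Drosophila melanogaster, yw and FM7a. All sites with a level in both strains were taken, which gave 1336 of the 1350 deposited sites, in 391 of 395 gene entries. Of these sites 298 lay on chromosome X, 1037 on autosomes and 1 on unplaced sequence. Exons held 614 of them and introns 722.

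Each strain was sampled as 2 libraries of nascent RNA, the RNA still bound to chromatin during transcription, from small preparations of 40 to 45 heads. The flies were males aged 3 to 4 days that had been kept for 3 to 4 days in light:dark cycles, and their nascent RNA had been cleared of polyadenylated transcripts. The yw flies are given as yellow white. The FM7a flies are given by that name alone, which is that of a balancer of chromosome X, and no further allele is stated in the labels. Males of a further strain, ADAR0, prepared alike, served only to mark sites that carry the edited base without the editing enzyme. Nascent RNA of yw heads was also sampled as 12 libraries over a light:dark cycle, in sets 1 and 2 of 6 libraries each. These pools served as a yardstick, although they were sequenced on the Illumina GA II and the male libraries on the HiSeq2000, the labels give them no sex, and set 1 was also depleted of ribosomal RNA.

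Adenosine-to-inosine editing is carried out by ADAR enzymes on double-stranded stretches of RNA, and inosine is read as guanosine by the ribosome and in sequencing. In the fly the enzyme is encoded by Adar, on chromosome X, and its known targets in the head include many transcripts of ion channels and synaptic proteins. FM7 balancers are chromosomes X with several inversions and visible markers, which keep a stock from losing a mutation through recombination. A male carries a single chromosome X, so an FM7a male has the X-linked genes of the balancer and no others.

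An editing level is the percentage of reads at a site that carry the edited base. The authors pooled both libraries of a strain before taking it, so each strain has 1 level per site, with no SD and no test, and the number of RNA reads behind it is unknown. A difference between strains is given below in percentage points, as yw minus FM7a, and whether it exceeds the spread between libraries could not be tested. The reads of yw genomic DNA over a compared site numbered 15 to 112, with a median of 43. In the pool of 12 yw libraries no compared site was at 0 and the lowest level was 4%, whereas 156 sites were listed at 0 in yw males and 252 in FM7a males. Heads hold many cell types, so a level is an average over cells, and a lower level per cell and fewer editing cells cannot be told apart. The table gives no expression. Compared sites were found in 2 of 4 marker genes of neurons (Syt1 and Syn), in 2 of 3 of photoreceptors (trp and norpA), in 3 of 3 of muscle, in 0 of 3 of fat body and in 0 of 1 of glia.

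Levels were somewhat lower in FM7a males than in yw males. The median level over the 1336 sites was 15% in yw and 11% in FM7a. The level was higher in yw at 774 sites, or 57.9%, higher in FM7a at 426, or 31.9%, while 136 sites were equal. In the median, yw exceeded FM7a by 2 points, with an interquartile range of -2 to 10 points. Differences of at least 20 points were more often in favour of yw: 131 sites, or 9.81%, were that much higher in yw, and 61 sites, or 4.57%, were that much higher in FM7a. These 192 sites fell in 112 gene entries, and 124 of them were intronic. Of the 192, 73 were listed at 0 in either strain, 53 in FM7a and 20 in yw.

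The distance between the strains was larger than that between the yw sets. The median absolute difference between yw and FM7a males was 6.5 points, against 4 points between sets 1 and 2 at the same sites. Between the sets 10 sites, or 0.749%, were at least 20 points apart, against 192 between the strains. The sets pool 6 libraries each and the male levels 2, and how much of this gap follows from the smaller pools was not tested. The yw males themselves differed from the yw light:dark pool by a median absolute difference of 8 points, and 191 sites were at least 20 points apart, about as many as between the strains. For FM7a males these values were 9 points and 242 sites. Both strains were mostly below that pool. At 834 sites, or 62.4%, the yw males were below both sets, and at 1011 sites, or 75.7%, the FM7a males were. Across sites, Pearson's r was 0.728 between yw and FM7a males, 0.802 between yw males and the light:dark pool, and 0.951 between the sets. These are descriptions across sites, which share libraries, and 353 pairs of neighbours within 50 bases may share reads.

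**Figure D1:**
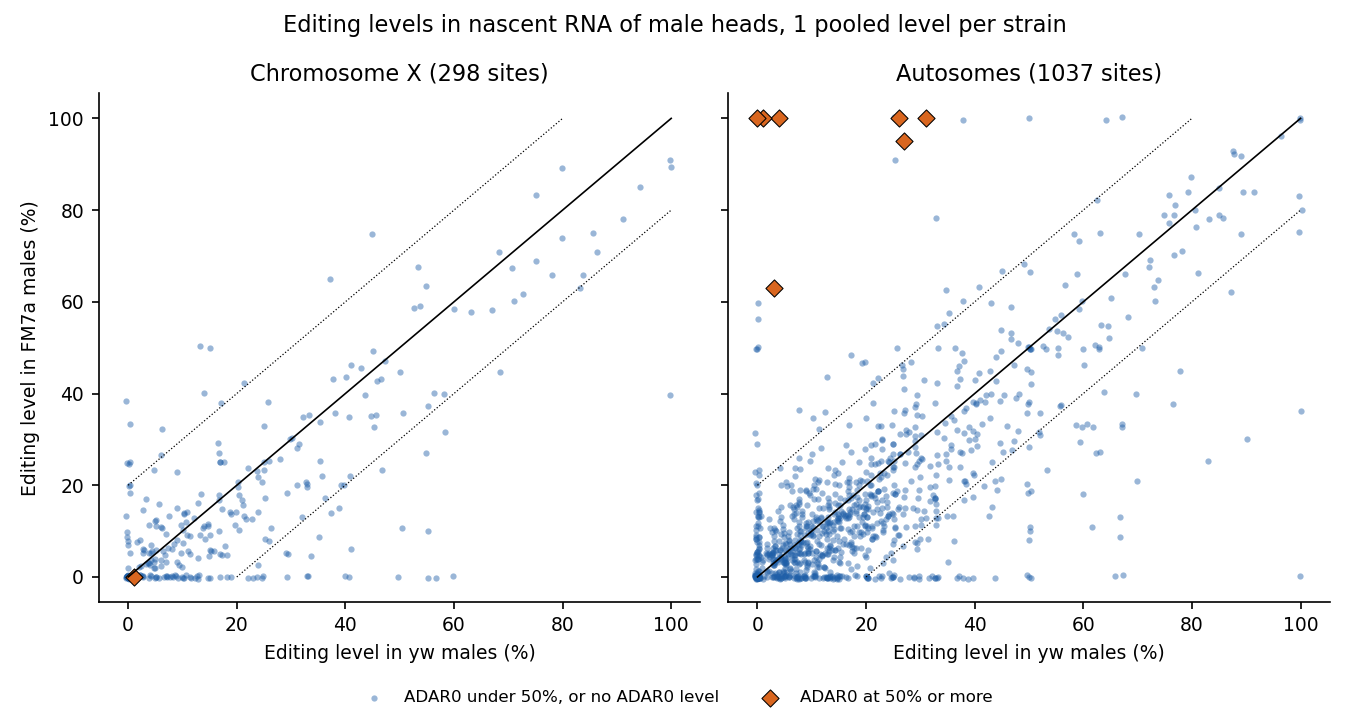
Editing level of each compared site in yw males (horizontal axis, %) and FM7a males (vertical axis, %), for 298 sites of chromosome X and 1037 autosomal sites, with points spread by under 1 point so that ties can be seen. The solid line marks equal levels and the dotted lines 20 points either way: 131 sites lie beyond the lower dotted line or on it and 61 beyond the upper one or on it, and 7 of the 8 diamonds, which mark sites at 50% or more in ADAR0 males, lie at 63% to 100% in FM7a on the autosomes.

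FM7a males took the lowest place among the pools at many sites. Their level was below those of yw males and of both yw sets at 660 sites, or 49.4%, and above all of them at 103, or 7.71%. How often yw males took the lowest place was not counted, and both male pools were below both sets at most sites, as given above. At 167 sites, or 12.5%, the yw males were above and the FM7a males below both sets, and at 65 sites, or 4.87%, the reverse held. The excess of yw was found over most of the range of levels. Sorted by the level in the 12 yw libraries, the median difference was 1 point at the 233 sites of 10% or less, 2 points in each class up to 60%, 5 points at the 80 sites above 60% and up to 80%, and 2.5 points at the 32 sites above 80%.

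Chromosome X, which is the balancer in FM7a males, differed little from the autosomes in the size of the difference. On X the median level was 14.5% in yw and 10% in FM7a, with a median difference of 2.5 points. On autosomes the medians were 15% and 12%, with a median difference of 2 points. The level was higher in yw at 178 X sites, or 59.7%, and at 595 autosomal sites, or 57.4%. At least 20 points separated the strains in favour of yw at 31 X sites, or 10.4%, and at 100 autosomal sites, or 9.64%. In favour of FM7a the counts were 16, or 5.37%, and 45, or 4.34%. X and autosomes thus differed by 0.5 points in the median, with both smaller and larger values under other choices. It was 0 without Sh or without rdgA and -0.25 when each gene counted once, but 1 without sites at 50% or more in ADAR0 males and 2 at sites found in each of the 4 male libraries.

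Sites listed at 0 were more frequent on chromosome X. FM7a males were listed at 0 at 82 X sites, or 27.5%, and at 169 autosomal sites, or 16.3%. For yw males these counts were 43, or 14.4%, and 113, or 10.9%. Sites at 0 in FM7a alone made up 18.1% of the X sites and 11.3% of the autosomal sites, and sites at 0 in yw alone 5.03% and 5.88%. Most of the X zeros were intronic, since 64 of the 170 intronic X sites, or 37.6%, were at 0 in FM7a and 35, or 20.6%, in yw. The gene Sh held 21 of the 82 zeros. Without Sh and rdgA, 56 of the 214 remaining X sites, or 26.2%, were at 0 in FM7a and 35, or 16.4%, in yw. With RNA depth unknown, a low read number cannot be told apart from absent editing at these sites.

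**Figure D2:**
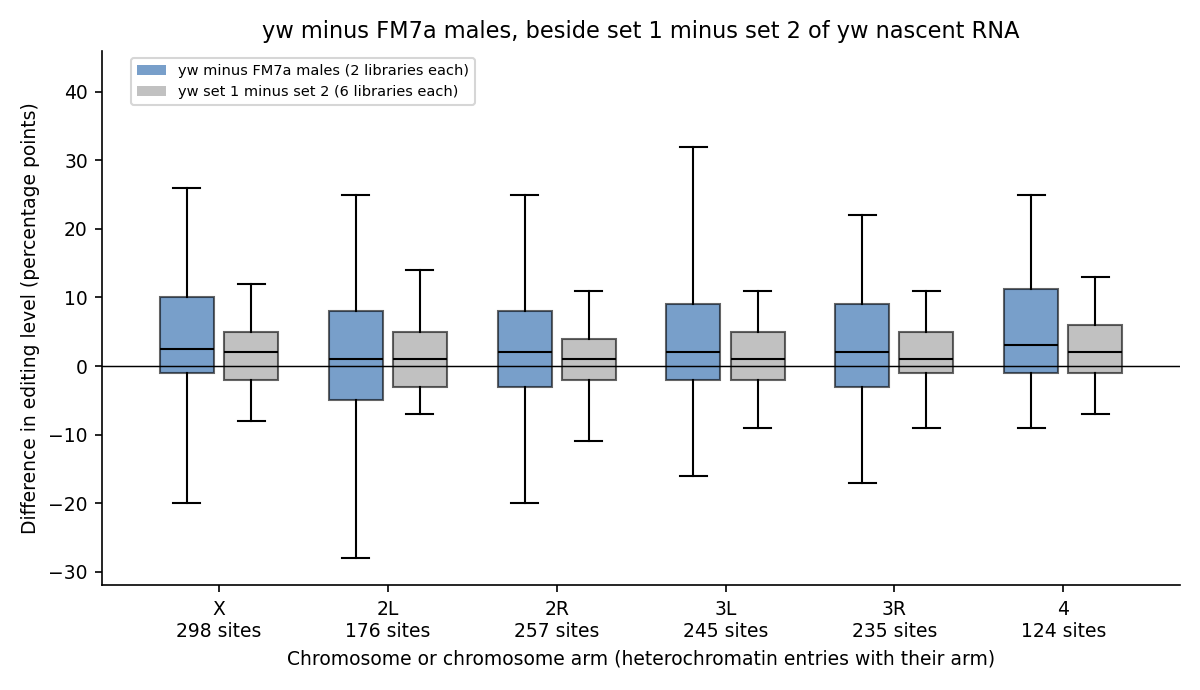
Difference in editing level by chromosome or arm, in percentage points: yw minus FM7a males (blue) beside set 1 minus set 2 of yw (grey), each box giving the median and quartiles over sites and the whiskers the 5th and 95th percentiles. The blue medians lie between 1 and 3 points on every arm, and the blue boxes and whiskers are wider than the grey ones.

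Large differences on chromosome 4 all favoured yw. Of its 124 sites, 76 were higher in yw and 37 in FM7a, and the median difference was 3 points. At least 20 points higher in yw were 16 sites, or 12.9% against 9.81% over all sites. In FM7a 0 were that much higher, against 4.57% over all sites. On this chromosome the gene pan, for a transcription factor of Wingless signalling, gave 5 of the 16, CG11155 gave 4 and PMCA 3. Without pan 11 of 113 sites remained, or 9.73%, near the share over all sites. On 2L the counts of sites at least 20 points apart were nearly even, with 18 higher in yw and 17 in FM7a among 176 sites, or 10.2% and 9.66%. The count of 17 fell to 13 without the sites at 50% or more in ADAR0 males, described below. On 2R these counts were 19 and 15 of 257, or 7.39% and 5.84%. On 3L they were 29 and 6 of 245, or 11.8% and 2.45%. On 3R they were 18 and 7 of 235, or 7.66% and 2.98%. Arm 2L also had the smallest median difference, 1 point, against 2 points on 2R, 3L and 3R.

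Exons and introns had the same median difference of 2 points, from medians of 20% in yw and 15% in FM7a in exons and of 13% and 9% in introns. Large differences were more frequent in introns. In introns 88 sites, or 12.2%, were at least 20 points higher in yw and 36, or 4.99%, in FM7a, whereas in exons these counts were 43, or 7.0%, and 25, or 4.07%. Intronic X sites had the highest share, with 26 of 170, or 15.3%, in favour of yw and 11, or 6.47%, in favour of FM7a. Exonic X sites were split evenly, with 5 in each direction among 128. Of the 26 intronic X sites, 15 lay in Sh and rdgA. Without these genes 11 of 92 remained, or 12.0%, near the 12.2% over all introns, and 8, or 8.70%, favoured FM7a. The median difference of these 92 sites was 0 points, with 43 higher in yw and 29 in FM7a.

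Channel genes of chromosome X held many of the compared sites. Sh encodes a voltage-gated potassium channel and had the most sites of any gene, 58, of which 52 were intronic. Its median level was 10.5% in yw and 4% in FM7a, against 15.5% and 16% in the sets, and 41 sites were higher in yw and 9 in FM7a. The 2 largest falls were neighbours in an intron, at position 17836462 with 57% in yw, 0% in FM7a and 38% and 57% in the sets, and at position 17836482 with 60%, 0%, and 70% and 54%. FM7a thus lacked listed editing at sites where all yw pools were at 38% or more. Against this stood the intronic site at position 17824975, at 15% in yw and 50% in FM7a. At its exonic site at 17824691 the levels were 86% and 71%, and at that at 17844090 they were 45% and 49%. In Sh, 17 sites were at 0 in FM7a alone and 2 in yw alone.

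The sodium channel gene para, with 46 sites, showed no common direction. Its median level was 17% in yw and 13% in FM7a, the median difference was 0.5 points, and 23 sites were higher in yw and 19 in FM7a. Of its sites at least 20 points apart, 3 favoured yw and 3 favoured FM7a. Position 16411197 in an intron was at 45% in yw and 75% in FM7a, and position 16365262 in an exon at 37% and 65%. In the other direction, position 16411519 in an intron was at 41% and 0%. The sets gave 46% and 43% at the first of these sites, 50% and 46% at the second and 11% and 12% at the third.

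The voltage-gated calcium channel gene cac had 25 compared sites with medians of 17% in yw and 14% in FM7a, and 16 were higher in yw and 4 in FM7a. Among its highly edited exonic sites, position 11865886 was at 78% and 66%, and position 11871571 at 60% and 58%. Position 11841045, an intronic site, was at 40% in yw and at 0% in FM7a. Intronic positions 11849558 and 11849594 were at 0% in yw and at 25% and 20% in FM7a, and 2 sites of cac each way were at least 20 points apart. Ca-alpha1T, a T-type calcium channel gene, had 12 sites with medians of 17.5% and 19.5% but a median difference per site of 7 points, 8 higher in yw and 2 in FM7a. The potassium channel gene eag also had 12, with medians of 36.5% and 37.5% and a median difference per site of 3.5 points, 7 higher in yw and 3 in FM7a. SK, for a calcium-activated potassium channel, had an intronic site at position 5276196 that was at 50% in yw and 0% in FM7a, while the sets gave 16% and 27%.

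The list of voltage-gated channel genes as a whole had compared sites in 13 of its 18 genes. Among the 12 with 3 or more sites, the median difference was above 0 in 11 and below 0 in slo alone. Among all 117 genes with 3 or more sites it was above 0 in 80. The 234 sites of the list had a median difference of 2 points, the same as over all sites. Of these, 146, or 62.4% against 57.9% over all sites, were higher in yw. In FM7a 63 were higher, or 26.9% against 31.9%. At least 20 points separated the strains at 8.55% of them in favour of yw, against 9.81%, and at 5.56% in favour of FM7a, against 4.57%. On autosomes, NaCP60E, a sodium channel gene, had 16 of 21 sites higher in yw, with medians of 24% and 15% but a median difference per site of 2 points. The potassium channel gene Shab had 11 of 19, with 29% and 18% and a median difference of 1 point. Ca-alpha1D, for an L-type calcium channel, had 7 of 11 and a median difference of 5 points, although its median level was lower in yw, at 20% against 31%. Auxiliary subunit genes also had medians above 0: stj, for an alpha2-delta subunit, had 5 of 6 sites higher in yw and a median difference of 17.5 points, Ca-beta had 3 of 4 and 4.5 points, and qvr, whose product acts on the Sh channel, had 4 of 7 and 5 points. In slo, a calcium-activated potassium channel gene, 6 of 11 sites were higher in FM7a, and the intronic site at position 20518299 was at 38% in yw and 100% in FM7a, with 65% and 62% in the sets.

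Phototransduction genes and ion pumps leaned more to yw than all sites did, in lists that both hold Calx. The median absolute difference was 10 points in the phototransduction list and 6.5 points in that of pumps and exchangers, against 6.5 points over all sites. The phototransduction list had 40 sites in 7 of its 20 genes, with medians of 19% in yw and 7.5% in FM7a and a median difference of 8 points. Of these sites 29, or 72.5% against 57.9% over all sites, were higher in yw and 8 were higher in FM7a. At least 20 points separated the strains at 10 in favour of yw, or 25% against 9.81% over all sites, and at 1 in favour of FM7a, or 2.5% against 4.57%. All of the 10 were in rdgA. Without rdgA, 14 sites remained with a median difference of 4 points, 10 higher in yw and 3 in FM7a. Of these 14 sites 0 were at least 20 points apart in either direction.

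rdgA encodes the diacylglycerol kinase of photoreceptors, which takes part in ending the light response, and it lies on chromosome X. Its 26 compared sites were all intronic, and their median level was 24.5% in yw, 10% in FM7a and 19% and 15% in the sets. The level was higher in yw at 19 sites and in FM7a at 5. Several stretches show how neighbouring sites compared. At positions 8818868, 8818902 and 8818960 the levels in yw were 24%, 47% and 34%, and in FM7a 3%, 23% and 5%. At positions 8830360, 8830364 and 8830367 they were 40%, 55% and 10% in yw and 20%, 10% and 0% in FM7a. In both stretches each site was lower in FM7a, and sites this close can lie on the same reads. Near the end of the gene's range, positions 8916868, 8916902 and 8916964 were at 32%, 55% and 29% in yw and at 13%, 27% and 5% in FM7a.

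The largest single falls in rdgA were at position 8914417, with 100% in yw and 40% in FM7a, and at position 8860450, with 55% and 0%. At the first of these sites the sets gave 30% and 38%, so it was the yw males that stood apart. At the second they gave 32% and 31%, so neither male pool was near them. The opposite direction was seen most at position 8829455, with 6% in yw and 27% in FM7a. Over the gene, FM7a males were below yw males and both sets at 14 of 26 sites, or near the share over all sites, 49.4%. Other phototransduction genes had few sites. In norpA, the phospholipase C gene of this cascade, positions 4227270 and 4227271 were at 13% in yw and 0% in FM7a, and both trpl channel sites were higher in yw, at 9% and 11% against 3% and 4%. The trp channel site went the other way, at 3% in yw and 7% in FM7a, and the Cpn site was at 0% in both. Both rdgB sites were higher in yw, by 1 to 2 points. In Calx 3 of 5 sites were higher in yw and 2 in FM7a.

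The pumps and exchangers list had 36 sites in 5 of its 12 genes, 28 of them, or 77.8% against 57.9% over all sites, higher in yw and 8 higher in FM7a, with a median difference of 5 points. Most of these came from PMCA, the plasma membrane calcium pump gene on chromosome 4, whose 19 compared sites were all intronic. The median level of PMCA was 21% in yw, 10% in FM7a and 16% and 19% in the sets, and 17 sites were higher in yw and 2 in FM7a. The adjoining positions 378347 and 378348 were at 70% and 50% in yw and at 40% and 20% in FM7a, with 41% and 31% in set 1 and 36% and 23% in set 2. Here FM7a was near the sets and yw males were above all other pools. At position 378299 the levels were 29% in yw and 0% in FM7a, and at position 377337, the highest in FM7a, 73% and 60%. Of the others, Calx, for the sodium/calcium exchanger, had a median difference of 8 points over 5 sites, the related exchanger gene Nckx30C 5 points over 6, and nrv3, a subunit of the sodium pump, 1 point over 4. Without PMCA the list had 11 of 17 sites, or 64.7%, higher in yw and 6 higher in FM7a, with a median difference of 3 points. Of these 17 sites 0 were at least 20 points apart in either direction. In the whole list 3 sites, or 8.33% against 9.81% over all sites, were at least 20 points higher in yw. In FM7a 0 were that much higher, against 4.57% over all sites.

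**Figure D3:**
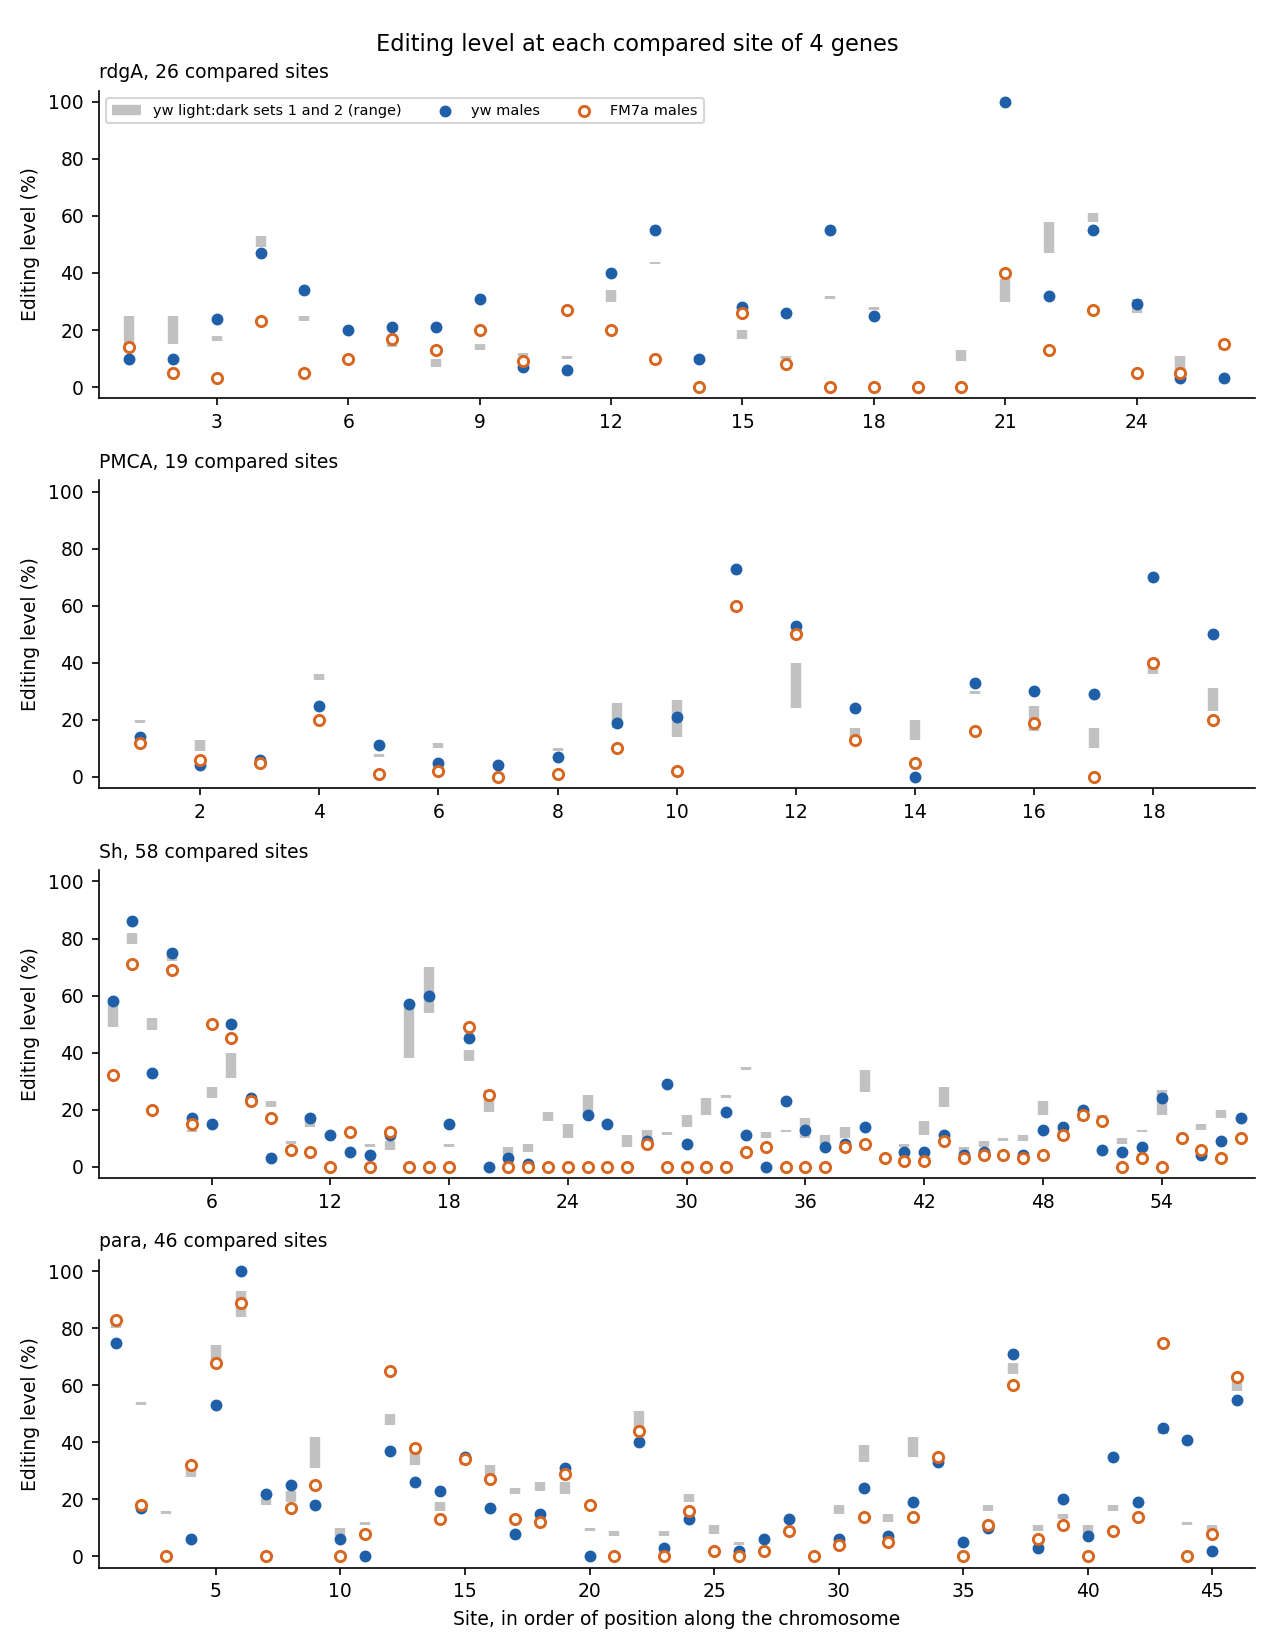
Editing level (%) at each compared site of rdgA, PMCA, Sh and para, in order of position, in yw males (filled), FM7a males (open, drawn on top where levels are equal) and the range of yw sets 1 and 2 (grey bars). Open circles lie below filled ones at 19 of 26 rdgA sites, 17 of 19 PMCA sites and 41 of 58 Sh sites, but only at 23 of 46 para sites.

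Ligand-gated receptor genes did not share this direction. Their 60 sites, in 10 of 21 listed genes, had medians of 28.5% in yw and 30% in FM7a and a median difference of 0 points, with 25 sites higher in yw and 25 in FM7a. The nicotinic acetylcholine receptor gene nAcRalpha-34E had the lowest median of any gene with 5 or more sites, -8 points, with 6 of 9 sites higher in FM7a and 1 in yw. Its exonic site at position 14089204 was at 67% in yw and 100% in FM7a, and its intronic site at position 14081991 at 8% and 36%. The sets were at 82% and 86% at the first and at 31% and 33% at the second, so FM7a was the highest of these pools and yw males the lowest at both. Just after the first, further exonic sites had no FM7a level and were at 0% in yw males. The number of reads behind the levels of the first site is unknown. In nAcRalpha-30D, 4 sites were higher in yw and 6 in FM7a, and 4 sites each way were at least 20 points apart. Its extremes were 83% in yw against 25% in FM7a at position 9814356, and 25% against 100% at position 9818081. In gfA, the nicotinic receptor gene of chromosome X also known as nAcRalpha-18C, 4 of 5 sites were higher in yw, with a median difference of 8 points. Rdl, for the GABA receptor, was close between strains, with a median difference of 2 points over 3 sites.

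Genes of synaptic vesicle release were split. Their 97 sites, in 12 genes, had a median difference of 1 point, with 53 sites, or 54.6%, higher in yw and 34, or 35.1%, in FM7a. Of the 11 genes with 3 or more sites, the median was above 0 in 5, below 0 in 5 and 0 in brp, a gene for an active zone protein. Snap25, a SNARE protein gene, had 10 of 11 sites higher in yw, with medians of 20% and 6%. Caps, which acts in dense-core vesicle release, had 10 of 12, and Syt1, the calcium sensor of release, 7 of 9. Syn, the synapsin gene, went the other way with 7 of 10 sites higher in FM7a and a median difference of -2.5 points, although its highest site at position 6021148 was at 89% and 92%. endoA, Rim, cpx and Syt7 had medians of -3, -4, -1 and -5 points over 5, 5, 8 and 5 sites. In the priming factor gene unc-13, 12 of 24 sites were higher in yw and 8 in FM7a, and 6 were at 0 in FM7a alone. The entry that joins stnA and stnB, overlapping genes of endocytosis, had a median difference of 9 points over 3 sites and was not counted in the list.

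Taken gene by gene, yw was ahead in most genes. Of 117 genes with 3 or more compared sites, the median difference was above 0 in 80, below 0 in 23 and 0 in 14. On chromosome X these counts were 18, 3 and 1 of 22 genes, and on autosomes 62, 20 and 13 of 95. In 8 of the 117 genes every site was higher in yw, and in 0 every site was higher in FM7a. Rlip had the highest median of the genes with 5 or more sites, 25 points over 5 sites, and was named after its values were seen. CG11155, on chromosome 4, followed with 21 points over 5 sites, among them position 1154280 at 100% in yw and 36% in FM7a.

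**Figure D4:**
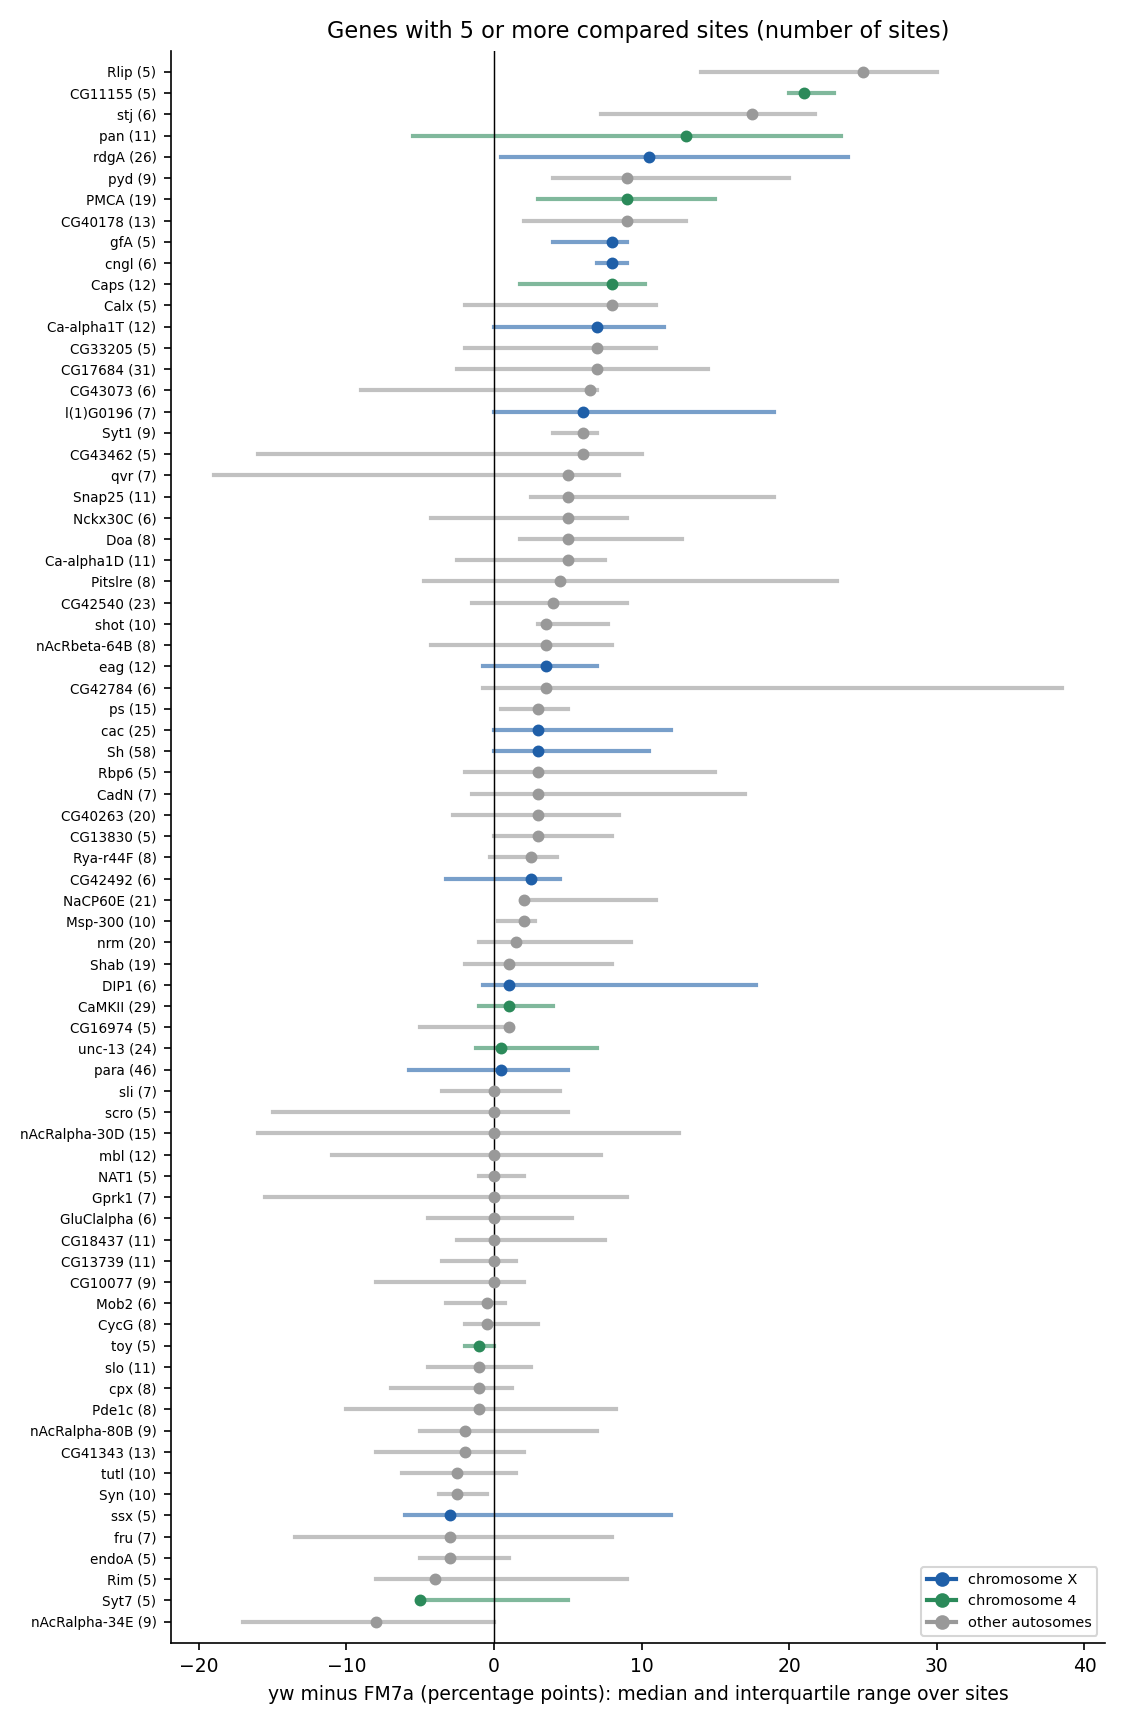
Median (point) and interquartile range (line) of yw minus FM7a over the sites of each of the 74 genes with 5 or more compared sites, in percentage points, with the number of sites after each name and the chromosome by colour. The median lies above 0 in 48 genes, below 0 in 16 and at 0 in 10, and 11 of the 12 genes of chromosome X are above 0.

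The remaining X-linked genes with 5 or more sites were small groups. cngl, for a channel related to the cyclic nucleotide-gated channels, had 6 intronic sites under its main entry at 4% to 11% in yw, and all 6 were listed at 0 in FM7a and at 7% to 22% in the sets. Its exonic site under another entry, at position 15286718, was at 68% in yw, 71% in FM7a and 78% and 83% in the sets. In l(1)G0196 the median difference was 6 points over 7 sites, in CG42492 2.5 points over 6, and in DIP1, a gene for a protein that binds double-stranded RNA, 1 point over 6. Only ssx, for an RNA-binding protein related to Sex-lethal, had a median below 0, at -3 points over 5 sites. Large excesses of FM7a on X, besides those of Sh and para given above, were at CG42629, with 0% in yw and 38% in FM7a at position 12969416, and at rg, with 13% and 50% at position 5099512 and 0% and 33% at position 4980560. The editing enzyme's own transcript was nearly equal, since the exonic Adar site at position 1675873 was at 26% in yw, 25% in FM7a, 0% in ADAR0 and 29% and 19% in the sets.

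Other genes with many sites lay on autosomes. CG17684, in the heterochromatin of chromosome 2, had 31 sites with medians of 23% in yw and 12% in FM7a, 21 higher in yw and 10 in FM7a. It also held large differences in both directions, with 67% against 0% at position 634137 and 0% against 56% at position 990851. CG42540 had 14 of 23 sites higher in yw and 8 in FM7a, and CG40263 14 of 20 and 6. CaMKII, the calcium/calmodulin-dependent kinase gene on chromosome 4, had 15 of 29 sites higher in yw and 9 in FM7a, with a median difference of 1 point.

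Among sites under 10% in ADAR0 males, several autosomal sites differed by as much as the largest X sites, those of Sh and rdgA at 60 points, or by more, and others followed at 50 to 58 points. At position 14766310 of chromosome 2R, in an intron of sano, yw was at 100% and FM7a at 0%, with 32% and 34% in the sets. At position 13473547 of 2L, in an intron of CG42784, yw was at 66%, FM7a at 0% and both sets at 74%, so that FM7a alone stood apart. An exonic site of CG31714, at position 10081944 of 2L, was at 67% and 9%, and that of pan at position 120661 of chromosome 4 at 90% and 30%. In the other direction, an exonic site of Vmat, the vesicular monoamine transporter gene, was at 25% in yw and 91% in FM7a (2R, position 9404780). Exonic Dgkepsilon (2R, 8646087), intronic scro (3LHet, 223285) and intronic uex (2RHet, 3177999) were each at 0% in yw and 50% in FM7a. The depth behind these round levels is unknown.

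Sites at 50% or more in ADAR0 males were few, and nearly all of them were far higher in FM7a than in yw. A level of 50% or more in ADAR0 was found at 8 compared sites, 7 on autosomes and 1 on X. FM7a was at 50% or more at 7 of them and yw at 0. In Atet (2L, position 4343232) the levels were 1% in yw, 100% in FM7a and 100% in ADAR0, in CG15431 (2L, 4407782) 4%, 100% and 100%, and in CG42784 (2L, 13471520) 0%, 100% and 100%. All 3 lie on the same arm, and at all 3 FM7a matched ADAR0 and not yw. In sky (2L, 20879847) the levels were 31%, 100% and 100%, in dysc (3L, 13875879) 27%, 95% and 100%, in CG16791 (3R, 17147687) 26%, 100% and 100%, and in the entry joining CG33719 and CG33720 (3R, 4608749) 3%, 63% and 72%. The exception was the exonic norpA site on X at position 4253674, with 1% in yw, 0% in FM7a and 100% in ADAR0. In ADAR0 males the edited base at these sites was present without the editing enzyme. Whether FM7a males carry it in their genome was not tested, since the genomic DNA sequenced was that of yw.

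**Figure D5:**
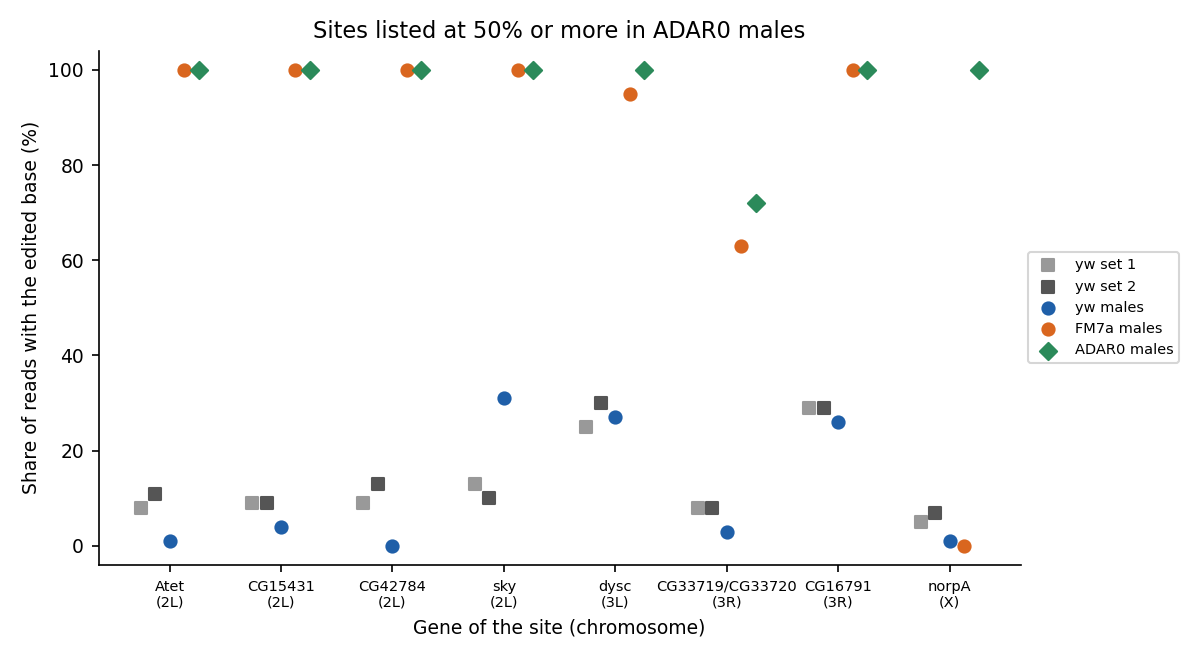
Share of reads with the edited base (%) at the 8 sites at 50% or more in ADAR0 males, in yw sets 1 and 2 (squares), yw males, FM7a males (circles) and ADAR0 males (diamonds), by gene and chromosome. At the 7 autosomal sites FM7a lies at 63% to 100%, beside ADAR0 and above every yw pool, whereas at the norpA site on X it lies at 0%.

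Few sites reached 95% in FM7a males. Among the 1037 autosomal sites 14 did, of which 6 were at 95% or more in ADAR0 as well, and among the 298 X sites 0 did. Counts this small do not set X apart from the autosomes. In yw males 11 sites reached 95%, 3 of them on X, in gfA, rdgA and para. In FM7a males these 3 sites were at 91%, 40% and 89%. A further 9 sites were at 10% to under 50% in ADAR0, and these went in both directions. The intronic tutl site at position 4305020 of 2L was at 50% in yw, 100% in FM7a and 14% in ADAR0. The intronic nAcRbeta-64B site at position 4431719 of 3L was at 100%, 80% and 20%. Leaving out the 8 sites at 50% or more in ADAR0 took the count of sites at least 20 points higher in FM7a from 61 to 54, and left that of sites higher in yw at 131.

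Sites that the authors marked as found in each of the 4 male libraries of yw and FM7a had a smaller share of large differences. Their median difference was not smaller, at 3 points against 2 over all sites. There were 609 such sites, 129 on X and 480 on autosomes, with medians of 26% in yw and 21% in FM7a. The level was higher in yw at 387, or 63.5%, and in FM7a at 190, or 31.2%. At least 20 points separated the strains at 42 sites in favour of yw and 18 in favour of FM7a, or 6.90% and 2.96%. Pearson's r across these sites was 0.852. The mark rests on the same libraries as the levels and leaves out every site at 0 in either strain. The smaller share of large differences and the value of r are therefore no independent check.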

How the data were processed

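Heads of yw and FM7a males were each sampled as 2 libraries of nascent RNA. The editing levels were deposited as fractions, each the share of reads at a site with the edited base. The authors pooled the libraries of a strain before taking it, per the file headers, and gave it to 2 decimals. They were multiplied by 100 here, so that 1 percentage point is the smallest step. Genomic coverage was deposited by the authors as a read count of yw DNA over each site. Per the submitters' processing notes the build was dm3, and CASAVA 1.8 and TopHat were used for the male libraries. The sources used here do not give the method of site calling or the RNA reads behind a level. Site positions keep the table's numbering, which may start at 0 or at 1. Exon or intron follows the deposited annotation.

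Sites with a level in both strains were kept, and differences were taken per site and summarised by medians and counts, with Python 3.11.15, numpy 2.4.6 and pandas 2.3.3. The summaries were checked on simulated levels. Heterochromatin entries were put with their arm. The columns used hold 1 pooled level per strain, so no test was run and no interval for the spread between libraries could be given. A difference of 20 points marks a large one. Genes carry the table's own names. RefSeq's gene table (Release 6 assembly) supplied the symbol of 3 entries that lacked it and served to match listed genes, and 12 entries join overlapping genes. The gene lists, members and named sites were chosen with earlier results of these data known. Sites were named by size, as the 8 largest differences in each direction and the 5 largest in each direction on chromosome X, both among sites under 10% in ADAR0, plus all sites at 50% or more in ADAR0 and all at 95% or more in either strain and 5% or less in the other. Genes were named as the 10 with the most sites, all X-linked genes with 5 or more, and listed genes with 3 or more. Values for single sites within these genes were picked as examples after they were seen, as were sites of listed genes with fewer sites.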

Additional observations from a re-analysis of the deposited data

How the results depend on the processing

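Of 55 values recomputed under another choice, 39 stayed close to the reported value, 15 moved and 1 changed sign. The median yw minus FM7a was 3 points at sites found in each of the 4 male libraries, 3 points at sites of 20% or more in the light:dark pool, and 8 points with the 12 light:dark yw libraries in place of yw males. The X minus autosome difference was -0.25 points when each gene counted once, 2 points at sites found in each of the 4 libraries and 1 point without sites at 50% or more in ADAR0, against 0.5. Exons minus introns was -0.070 on the log2 scale with 1 point added, where the reported value was 0 points. The median absolute difference became 9 points at sites of 20% or more and 9 points with the light:dark pool. Sites at least 20 points higher in yw numbered 42 among those found in each of the 4 libraries, 78 without sites at 0, 220 with the light:dark pool, 338 at a threshold of 10 points and 57 at 30 points, against 131. Those higher in FM7a numbered 18 among sites found in each of the 4 libraries, 22 with the light:dark pool, 141 at 10 points and 27 at 30 points, against 61. Among sites found in each of the 4 libraries the shares fell as well, to 6.90% and 2.96% from 9.81% and 4.57%, and without sites at 0 the share higher in yw was 7.74%. The cause of these changes was not tested. No paired analysis was possible because the columns pool the replicates of a strain, and for the same reason no library could be left out. A minimum of RNA coverage was not applied, as the coverage is unknown. Leaving out sites at 50% or more in ADAR0 and leaving out rdgA were added after the data were seen.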

Other observations

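The 14 sites left out of the comparison were concentrated in a few genes. A level was missing in FM7a alone at 10, in yw alone at 2 and in both at 2. Of the 10, 5 were exonic sites of nAcRalpha-34E between positions 14089207 and 14089249 of chromosome 2L, all listed at 0 in yw males although the sets gave 21% to 85%. A few bases before them, position 14089204 was at 67% in yw and 100% in FM7a. Also without an FM7a level were both exonic elav sites on chromosome X, at 0% and 25% in yw, elav being the neuronal RNA-binding protein gene, and an intronic site of the serotonin receptor gene 5-HT7, at 67% in yw.

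Along chromosome X, in windows of 5 Mb, the median difference was 0.5 points over 28 sites from 0 to 5 Mb, 5 points over 61 sites from 5 to 10 Mb, which hold rdgA, 2 points over 60 sites from 10 to 15 Mb, 3 points over 130 sites from 15 to 20 Mb, which hold Sh and para, and 2 points over 19 sites beyond. FM7a levels of 0 made up 33.8% of the sites from 15 to 20 Mb and 15.8% to 25% in the other windows.

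Sites that also carry an mRNA level, 255 in all and all exonic, had medians of 36% in yw males and 32% in FM7a males. Of these, 160 were higher in yw and 86 in FM7a, and the median difference was 3 points. At least 20 points higher in yw were 22, or 8.63% against 9.81% over all sites. In FM7a 12 were that much higher, or 4.71% against 4.57%, so both shares were near those over all sites. FM7a was listed at 0 at 11 of the 255, or 4.31%, against 18.9% of all compared sites. The 255 sites were also more highly edited, with a median of 48% in the light:dark pool against 21% over all compared sites.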
